A study of Mus musculus with 6 samples.

Results

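Atg7 and 9 further core genes of autophagy were read in mouse liver at 29 probe sets, out of 45037 probe sets tested on the array. A probe set is a group of short probes that together give 1 expression value for a transcript. The members are all probe sets that the platform annotation pairs with a single gene, where that gene is Atg7, Atg3, Atg4b, Atg5, Atg10, Atg12, Atg16l1, Becn1, Map1lc3b or Sqstm1. All 10 genes had at least 1 such probe set, and 5 of the 29 probe sets were dim, with a mean under 6 on the log2 scale. Atg7 was taken up because 1 of its probe sets was already known to be lower in B6.C3H-6T, so the strain differences of Atg7 describe what was chosen and are not a test of it.

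The study compared the livers of 3 C57BL/6J mice and 3 mice of B6.C3H-6T, a congenic strain that carries C3H DNA on chromosome 6 in a C57BL/6J background and that the series describes as low in serum IGF-1. All 6 were chow-fed females aged 8 weeks, with 1 mouse per array and no pooling. Where the C3H segment begins and ends is not stated in the labels. The question asked here was whether the probe sets of Atg7, a gene on chromosome 6, show the same strain difference, and whether the genes that work with Atg7 differ as well.

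Values are log2 expression after RMA, the authors' background correction and normalization, so that a difference of 1 is a 2-fold change. Array medians ran from 6.07 to 6.11. On the first principal component (37.3% of the variance) B6.C3H-6T replicate 2 lay farthest from the C57BL/6J arrays, and B6.C3H-6T replicate 3 correlated about as closely with the C57BL/6J arrays (mean r 0.9964) as with its own strain (0.9962). The 3' minus 5' signal of the Actb controls, a measure of RNA integrity, was 0.59 to 0.61 in C57BL/6J and 0.53 to 0.70 in B6.C3H-6T. The summed level of 6 hepatocyte markers was 16.32 to 16.40 in C57BL/6J and 16.43 to 16.48 in B6.C3H-6T on the log2 scale. Alb itself averaged 14.52 in the former strain and 14.54 in the latter. Of the other hepatocyte genes, Tat was higher without overlap by 0.42 ± 0.09 and Cps1 by 0.26 ± 0.06 (limma adjusted p = 0.216 and 0.232). The summed level of 6 Kupffer cell markers was lower without overlap, at 12.35 to 12.61 against 11.98 to 12.27. All 6 Kupffer genes had a difference below 0, with a median of -0.29, though the strains overlapped at Cd5l and Marco. None passed limma's adjusted threshold over all genes, while all 6 had an unadjusted p under 0.05. Over all genes 12.1% had such a p, 5.80% lower and 6.34% higher. The 6 lymphocyte markers summed to 9.64 on every C57BL/6J array and to 9.34 to 9.59 in B6.C3H-6T. Of these, Ptprc, a gene of all leukocytes, differed by -0.47 ± 0.11 (limma adjusted p = 0.230), Ms4a1 of B cells by -0.20 ± 0.09, and the T cell genes Cd3e and Cd8a by 0.09 ± 0.06 and 0.02 ± 0.07. The sums for endothelial cells, stellate cells, cholangiocytes and neutrophils overlapped between the strains. The part of these cells in the values below was not tested, and in whole liver fewer cells of a type and less RNA per cell cannot be told apart.

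Autophagy encloses cytoplasm in a double membrane and delivers it to the lysosome. Atg7 is the E1-like enzyme that starts both conjugation reactions of the pathway. In one, the ubiquitin-like protein Atg12 is passed through Atg10 to Atg5. In the other, LC3, encoded by Map1lc3b, is passed through Atg3 to a membrane lipid. In mouse liver, deletion of Atg7 is known to block autophagy, enlarge the organ and let the cargo receptor p62, encoded by Sqstm1, build up as protein. The arrays measure RNA only.

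Of the 29 probe sets, 1 was lower in B6.C3H-6T at an adjusted p under 0.05 and none was higher. Over all probe sets 26 of 45037 passed, or 0.0577%, made up of 0.0466% lower and 0.0111% higher. The probe set that passed was the one for which Atg7 was chosen, so nothing is read from that share. Among all 29, 19 differences lay below 0 and 10 above it, with a median of -0.06, beside 0.02 over all probe sets. Without Atg7, 15 of 25 lay below 0, the median was -0.04, and the lowest and highest differences were -0.19 and 0.20. The median size of a difference, sign aside, was 0.08 among those 25 and 0.07 over all probe sets.

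**Figure D1:**
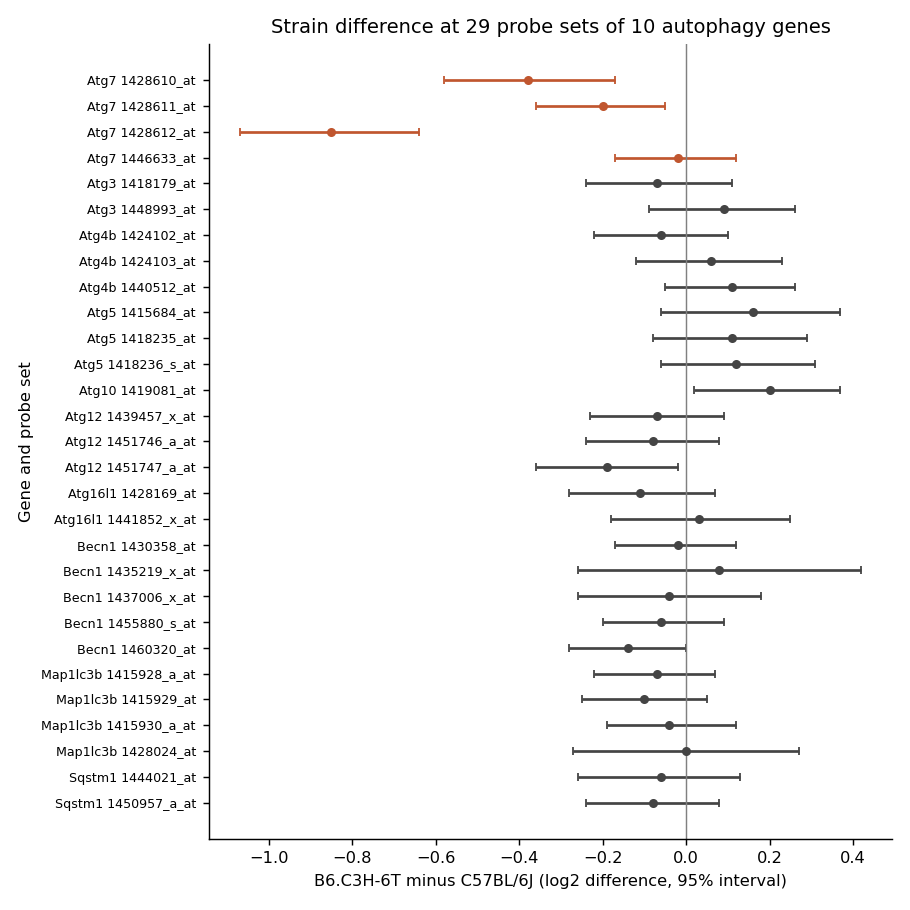
Strain difference (B6.C3H-6T minus C57BL/6J, log2) on the x axis for each of 29 probe sets of 10 genes on the y axis; points are limma estimates from 3 mice per strain and bars are 95% intervals, with Atg7 in orange. The point at -0.85 is the Atg7 probe set 1428612_at, and every probe set of the other 9 genes lies between -0.19 and 0.20.

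Atg7 was measured by 4 probe sets, and they did not show the same difference. The probe set 1428612_at read 8.04, 8.02 and 8.03 in C57BL/6J replicates 1 to 3 and 6.98, 7.37 and 7.17 in B6.C3H-6T replicates 1 to 3. The C57BL/6J arrays were nearly identical, and all 3 B6.C3H-6T arrays lay below them with a wider spread. The signal of this probe set differed by -0.85 ± 0.10 on the log2 scale (difference ± SE, n = 3 mice in each strain), which is 1.81-fold, with a 95% interval from -1.07 to -0.64 (limma adjusted p = 0.0206). The sequences of the probes and their places in the transcript were not analysed here, so less Atg7 RNA and weaker binding of C3H RNA to these probes cannot be told apart.

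The probe set 1428610_at read 7.19, 6.86 and 7.05 in C57BL/6J and 6.59, 6.74 and 6.65 in B6.C3H-6T. The strains again did not overlap, with B6.C3H-6T the lower, and the difference was -0.38 ± 0.09 (interval -0.58 to -0.17; limma adjusted p = 0.273). The probe set 1428611_at read 8.15, 8.27 and 8.24 in C57BL/6J against 8.05, 8.07 and 7.92 in B6.C3H-6T. Here too every B6.C3H-6T array was the lower, by a smaller difference of -0.20 ± 0.07 (interval -0.36 to -0.05; limma adjusted p = 0.389). The remaining probe set, 1446633_at, read 4.14, 4.26 and 4.22 in C57BL/6J and 4.21, 4.15 and 4.18 in B6.C3H-6T. Its strains overlapped and its difference was -0.02 ± 0.06 (interval -0.17 to 0.12; limma adjusted p = 0.925). Its mean of 4.19 is dim, and it is the only dim one of the 4. The 3 others were drawn from the same database sequence by the array's annotation and 1446633_at from another.

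**Figure D2:**
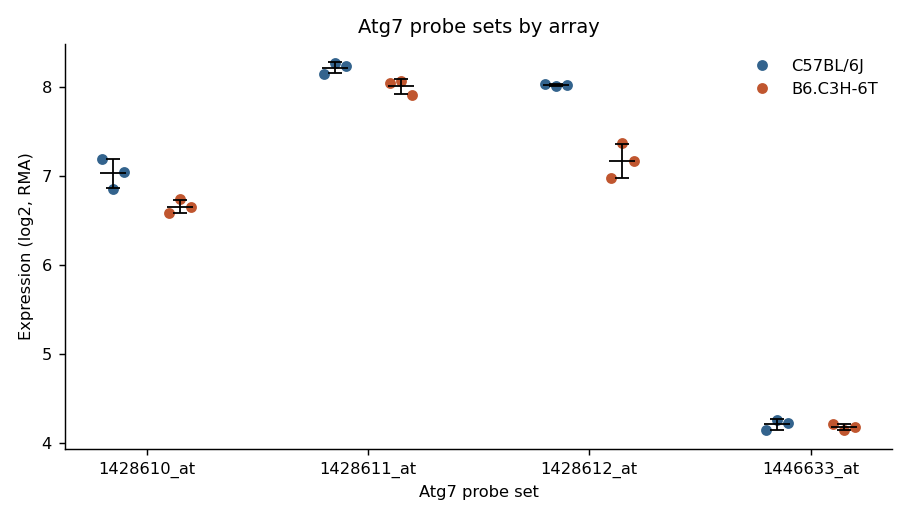
Expression (log2, RMA) on the y axis for the 4 Atg7 probe sets on the x axis; each point is 1 mouse, blue for C57BL/6J and orange for B6.C3H-6T, and black marks are the mean and SD of 3 mice. The strains are separate at 1428610_at, 1428611_at and 1428612_at, with the widest gap at the last (8.03 against 7.17), and overlap at 1446633_at.

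Of the 4 Atg7 probe sets, 3 thus had no overlap between the strains, each with B6.C3H-6T the lower. Among them 1428612_at was chosen for its difference, so its lack of overlap came with the choice. The other 2 were 1428610_at and 1428611_at. Over all probe sets 6.44% were lower without overlap, and nothing is read from that share. The sizes of the Atg7 differences varied by more than the spread between mice. Within an array, 1428612_at minus 1428611_at was -0.11, -0.25 and -0.22 in C57BL/6J and -1.07, -0.69 and -0.76 in B6.C3H-6T, a shift of -0.65. Relative to 1428610_at the same quantity was 0.84 to 1.16 in C57BL/6J and 0.39 to 0.64 in B6.C3H-6T, a shift of -0.48. Neither pair of ranges overlaps, so on each B6.C3H-6T array 1428612_at was lower relative to the other 2 probe sets than on any C57BL/6J array. Since 1428612_at was the probe set chosen for its difference, these shifts are a description and carry no test. Over the 6 arrays, 1428612_at correlated with 1428610_at at r = 0.90, with 1428611_at at 0.85 and with 1446633_at at 0.18. The points share the strain difference itself and are given with no p.

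The call at 1428612_at depended on the arrays used. Leaving out 1 array in turn gave differences of -0.95 to -0.76. Omitting C57BL/6J replicate 1 gave a limma adjusted p of 0.083, omitting replicate 2 of that strain gave 0.115 and omitting its replicate 3 gave 0.163. Among the B6.C3H-6T arrays, the adjusted p was 0.0494 when replicate 1 was omitted, 0.0103 for replicate 2 and 0.0814 for replicate 3. The call was therefore lost without any one of the C57BL/6J arrays or without B6.C3H-6T replicate 3. At 1428610_at the difference ran from -0.46 to -0.29 and at 1428611_at from -0.24 to -0.16 when 1 array was left out, below 0 in every fit.

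The spread between probe sets, taken as a gene's highest minus its lowest strain difference, was 0.83 for Atg7. Its upper end, -0.02, was at the dim 1446633_at (mean 4.19), and the other Atg7 probe sets ran from -0.85 to -0.20. Among the other 8 members with more than 1 probe set the spread ran from 0.01 for Sqstm1 to 0.22 for Becn1. The median over 1093 genes with 4 probe sets was 0.18, and 2 of these genes, Atg7 included, reached 0.83. Because the value that chose Atg7 enters its spread, this too is a description.

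**Figure D3:**
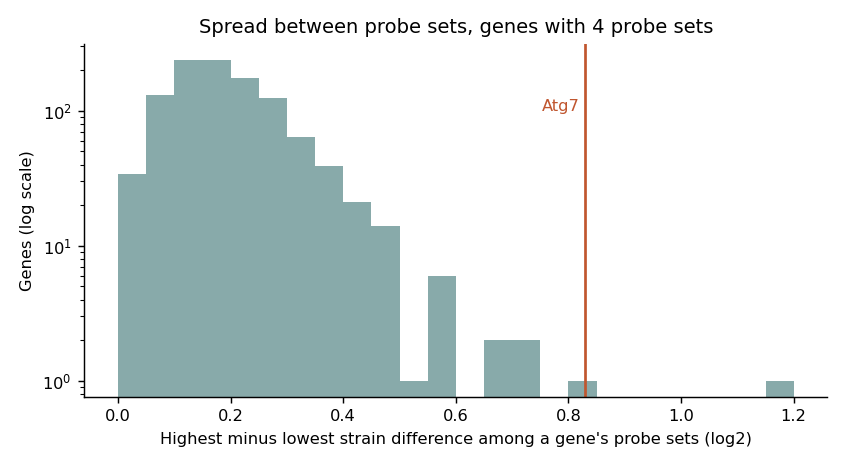
Number of genes (y axis, log scale) by the highest minus the lowest strain difference among a gene's probe sets (x axis, log2) for 1093 genes with 4 probe sets; the orange line marks Atg7. Atg7 lies at 0.83, far to the right of the median of 0.18. The upper end of the Atg7 spread is the dim probe set 1446633_at.

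A window around a RefSeq start of Atg7 runs from 250 bases before that start to 50 after it (GRCm38.p6, chr6:114670846-114671145, + strand). It is shown because Atg7 is the member with a probe set past the threshold. Whether Atg7 has other starts was not looked at, so the window need not be the gene's main promoter. The assembly is of C57BL/6J, so the sequence is the control strain's. The windows of Atg5 (chr10:44268089-44268388, + strand) and Atg3 (chr16:45158579-45158878, + strand) follow as the other members with the word CACGTG, the core of the E-box that the autophagy and lysosome regulator TFEB binds. CACGTG is in capitals.
Atg7: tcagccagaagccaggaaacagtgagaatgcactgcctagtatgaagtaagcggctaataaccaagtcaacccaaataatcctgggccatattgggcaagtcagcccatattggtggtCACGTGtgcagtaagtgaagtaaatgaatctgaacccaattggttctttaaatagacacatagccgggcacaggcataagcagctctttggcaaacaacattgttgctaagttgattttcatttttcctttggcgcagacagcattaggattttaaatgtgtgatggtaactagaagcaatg
Atg5: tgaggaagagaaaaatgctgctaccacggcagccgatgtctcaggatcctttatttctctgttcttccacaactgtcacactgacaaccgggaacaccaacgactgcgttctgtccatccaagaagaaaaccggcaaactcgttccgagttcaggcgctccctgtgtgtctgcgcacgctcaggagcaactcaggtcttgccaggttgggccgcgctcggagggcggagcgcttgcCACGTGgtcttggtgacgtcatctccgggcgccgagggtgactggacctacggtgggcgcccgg
Atg3: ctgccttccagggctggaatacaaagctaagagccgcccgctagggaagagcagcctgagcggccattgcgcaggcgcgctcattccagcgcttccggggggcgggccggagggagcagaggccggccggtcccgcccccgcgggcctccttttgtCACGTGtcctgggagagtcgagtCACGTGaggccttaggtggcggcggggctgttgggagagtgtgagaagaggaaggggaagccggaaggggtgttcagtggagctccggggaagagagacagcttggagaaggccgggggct
RefSeq windows were matched for 7 of the 10 members, and 3 of the 7 held CACGTG, which reads the same on both strands. Of all 32851 windows of this length 7.15% held it. The word begins at -132 from the start used in Atg7, at -14 in Atg5 and, in the first of 2 copies, at -94 in Atg3. Atg5 and Atg3 had no probe set that passed the threshold. Of the other words searched on both strands, TGTTTAC, the forkhead word, was in 0 of the 7 windows and in 3.65% of all. TGACGTCA, the cyclic AMP response element, was in that of Atg5 and in 1.79% of all. CCGGAAG, an ETS word, was in that of Atg3 and in 8.86% of all. These words were chosen from general knowledge after the expression values were seen, and a match is a description of letters.

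The E2-like enzymes that take over from Atg7 did not pass the threshold. Atg10, which hands Atg12 to Atg5, read 7.09, 6.85 and 6.89 in C57BL/6J and 7.17, 7.16 and 7.08 in B6.C3H-6T at its single probe set. C57BL/6J replicate 1 lay within the range of B6.C3H-6T, and the difference was 0.20 ± 0.08 (interval 0.02 to 0.37; limma adjusted p = 0.443), the highest of all member probe sets. Atg3, which hands LC3 to the lipid, read 11.21, 11.30 and 11.10 in C57BL/6J and 11.28, 11.39 and 11.20 in B6.C3H-6T at 1448993_at. The strains overlapped and differed by 0.09 ± 0.08 (interval -0.09 to 0.26). Its other probe set, 1418179_at, is dim and differed by -0.07 ± 0.08.

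Atg5, Atg12 and Atg16l1 form the complex that directs LC3 to the growing membrane. Atg5 lay above 0 at all 3 of its probe sets, at 0.16 ± 0.09, 0.11 ± 0.08 and 0.12 ± 0.08, and the strains overlapped at each. At 1415684_at, the first of these, it read 9.90, 9.74 and 9.62 in C57BL/6J and 9.86, 10.05 and 9.81 in B6.C3H-6T (interval -0.06 to 0.37; limma adjusted p = 0.596). The 3 probe sets of Atg5 differed among themselves by no more than 0.05. Atg12 lay below 0 at all 3 of its probe sets. The strains were apart at 1451747_a_at, with 8.34, 8.45 and 8.25 in C57BL/6J and 8.24, 8.13 and 8.09 in B6.C3H-6T. That difference was -0.19 ± 0.08 (interval -0.36 to -0.02; limma adjusted p = 0.435). At 1451746_a_at Atg12 differed by -0.08 ± 0.07, and 1439457_x_at, a dim probe set, differed by -0.07 ± 0.07. Atg16l1 differed by -0.11 ± 0.08 at 1428169_at and by 0.03 ± 0.10 at the dim 1441852_x_at, with overlap at both.

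Atg4b encodes the protease that trims LC3 before conjugation and frees it afterwards, and its 3 probe sets differed by -0.06 ± 0.07, 0.06 ± 0.08 and 0.11 ± 0.07. The strains overlapped at each. Map1lc3b, the LC3B gene, was read by 4 probe sets. At 1415928_a_at it read 10.78, 10.84 and 10.75 in C57BL/6J and 10.74, 10.65 and 10.76 in B6.C3H-6T, with overlap and a difference of -0.07 ± 0.06 (interval -0.22 to 0.07; limma adjusted p = 0.732). The others differed by -0.10 ± 0.07 at 1415929_at, -0.04 ± 0.07 at 1415930_a_at and 0.00 ± 0.12 at 1428024_at.

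Becn1 encodes a subunit of the lipid kinase complex that marks the site of membrane growth. At 1460320_at it read 9.23, 9.27 and 9.26 in C57BL/6J and 9.06, 9.14 and 9.13 in B6.C3H-6T. The strains were apart, and the difference was -0.14 ± 0.06 (limma adjusted p = 0.459). The other 4 Becn1 probe sets overlapped between the strains and ran from -0.06 ± 0.06 at 1455880_s_at to 0.08 ± 0.15 at 1435219_x_at. The endings _s_at and _x_at mark probes that can also match other transcripts, so those values are less certain for Becn1 itself. Sqstm1, the p62 gene, read 12.05, 12.09 and 12.06 in C57BL/6J and 12.10, 11.96 and 11.91 in B6.C3H-6T at 1450957_a_at. B6.C3H-6T replicate 1 was the highest of the 6, and the difference was -0.08 ± 0.07 (interval -0.24 to 0.08; limma adjusted p = 0.732). The dim probe set 1444021_at differed by -0.06 ± 0.08.

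Among the 25 probe sets of the 9 genes other than Atg7, 0 passed in limma, 3 had an unadjusted p under 0.05, and 2 had no overlap between the strains, both with B6.C3H-6T the lower. Over all probe sets 10.6% had such a p and 16.0% had no overlap, 6.44% lower and 9.58% higher. These 3 were Atg10, Atg12 at 1451747_a_at and Becn1 at 1460320_at.

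Other genes of the pathway were taken from lists by role, with 1 probe set per gene, the one of highest mean, and p adjusted over 18193 genes. Of 60 listed genes 58 were measured, and 0 passed in limma, beside 13 of all genes (0.0715%). At an unadjusted p under 0.05 there were 7, 5 lower and 2 higher, beside 12.1% of all genes (5.80% lower and 6.34% higher). Of the 58, 34 lay below 0, and the median was -0.03, against 0.02 over all genes.

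In the initiation kinase complex, which responds to nutrient signals, 0 of 5 genes had an unadjusted p under 0.05. Ulk2, one of its kinases, differed by -0.21 ± 0.11, the subunit gene Atg101 by -0.14 ± 0.07 and Atg13 by 0.14 ± 0.10. In the class III PI3-kinase complex 0 of 7 did. The catalytic subunit gene Pik3c3 differed by -0.14 ± 0.06, Atg14, which targets the complex to autophagy, by 0.12 ± 0.07, and Pik3r4 by -0.12 ± 0.09. Of 9 genes of membrane growth, 2 had an unadjusted p under 0.05, both lower. Atg2a, whose product carries lipid to the growing membrane, read 9.23, 9.18 and 9.23 in C57BL/6J and 9.07, 8.93 and 8.93 in B6.C3H-6T. The strains were apart and differed by -0.24 ± 0.07 (limma adjusted p = 0.274). Wipi2, which recruits Atg16l1, differed by -0.16 ± 0.07 and Wdr45 by -0.14 ± 0.08.

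None of 9 other conjugation genes had an unadjusted p under 0.05. Gabarapl1, a relative of LC3 that lies on chromosome 6 like Atg7, differed by -0.19 ± 0.12, Atg16l2 by 0.15 ± 0.10 and Map1lc3a by -0.09 ± 0.07. Of 9 measured cargo receptors, 8 lay below 0, with a median of -0.08, beside 7990 of 18193 and 0.02 over all genes. Only 1 of the 9 had an unadjusted p under 0.05. Fundc1, a receptor for mitochondria, differed by -0.16 ± 0.07, Wdfy3 by -0.13 ± 0.07 and Retreg1, a receptor for endoplasmic reticulum, by 0.22 ± 0.10. Genes of fusion with the lysosome had the narrowest range of the 7 lists, -0.07 to 0.09 over 8 genes. Lamp1 differed by 0.09 ± 0.07, Vamp8, which also lies on chromosome 6, by -0.06 ± 0.06 and Epg5 by -0.07 ± 0.08.

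Upstream control genes had the widest range, -0.35 to 0.36 over 11 genes, and 4 had an unadjusted p under 0.05. Foxo3, a transcription factor gene that promotes autophagy gene expression, read 8.66, 8.74 and 8.73 in C57BL/6J and 9.06, 9.25 and 8.92 in B6.C3H-6T. All 3 B6.C3H-6T arrays were the higher, by 0.36 ± 0.09 (limma adjusted p = 0.230). Mtor, the kinase that restrains autophagy, read 9.17, 9.50 and 9.44 in C57BL/6J and 9.23, 8.88 and 8.96 in B6.C3H-6T. These overlapped, because C57BL/6J replicate 1 was below B6.C3H-6T replicate 1, and differed by -0.35 ± 0.11 (limma adjusted p = 0.313). The value was -0.02 at the Mtor probe set of median p and -0.12 as the mean of its probe sets. With the probe set of median p, Wipi2 was at 0.03, Wdfy3 at 0.04 and Atg16l2 at -0.16, each of opposite sign to the value above. Prkaa1, a catalytic subunit of AMP-activated kinase, differed by -0.25 ± 0.10 at a dim probe set.

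**Figure D4:**
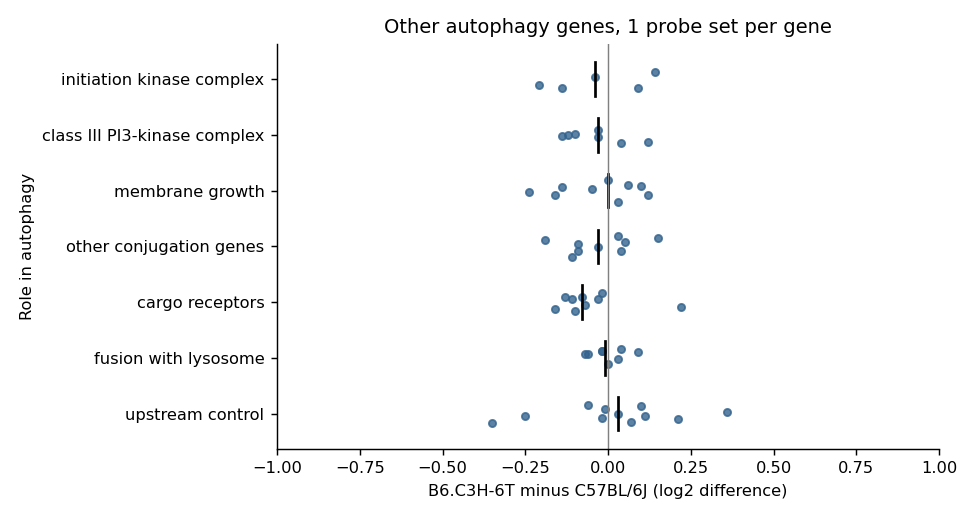
Strain difference (log2, x axis) of 58 other autophagy genes, 1 point per gene, by role (y axis); black bars are list medians. All genes lie between -0.35 and 0.36, and the list medians between -0.08 and 0.03.

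Atg7 lies on chromosome 6, which carries the C3H DNA, while Atg3, Atg4b, Atg5, Atg10, Atg12, Atg16l1, Becn1, Map1lc3b and Sqstm1 lie on other chromosomes. The 10 measured genes on each side of Atg7 were compared at 1 probe set per gene. Of these 20, 8 lay below 0 and 12 above it, with a median of 0.03, and 0 passed in limma over all genes. At an unadjusted p under 0.05 there were 3, beside 12.1% of all genes, and 6 had no overlap between the strains, beside 17.8%. Fancd2os, Ghrl, Atp2b2, Slc6a11, Hrh1, Gm17733, Timp4, Cand2 and Efcab12 were read at dim probe sets (mean under 6). By the same rule, the probe set of highest mean, Atg7 itself is read at 1428611_at. That probe set differed by -0.20 ± 0.07 and did not pass (limma adjusted p = 0.389 over all probe sets).

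The next measured gene after Atg7, Vgll4, which encodes a cofactor of TEAD transcription factors, was higher in every B6.C3H-6T array and differed by 0.23 ± 0.08 (limma adjusted p = 0.333). Just before Atg7, Hrh1, the histamine receptor gene, named for its place after its value was seen, differed by 0.01 ± 0.08. Its probe set is dim (mean 5.81). Pparg, which encodes a nuclear receptor of fat cells, is the sixth measured gene after Atg7 and had the lowest difference of the 20, -0.66 ± 0.10 (limma adjusted p = 0.0744). Cand2 differed by -0.27 ± 0.08 at 1429621_at and by 0.08 ± 0.06 at 1429622_at, both dim (means 5.64 and 5.25). Ghrl, the ghrelin gene, differed by 0.20 ± 0.09 at a dim probe set (mean 4.96), and Mkrn2 by 0.13 ± 0.07. Mkrn2 differed by -0.07 ± 0.07 at its other probe set. Over the 992 measured genes of chromosome 6, 6 passed in limma, all lower, with a median difference of 0.01. Over all 18193 genes, these 6 included, 13 passed (0.0715%), 11 lower and 2 higher.

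**Figure D5:**
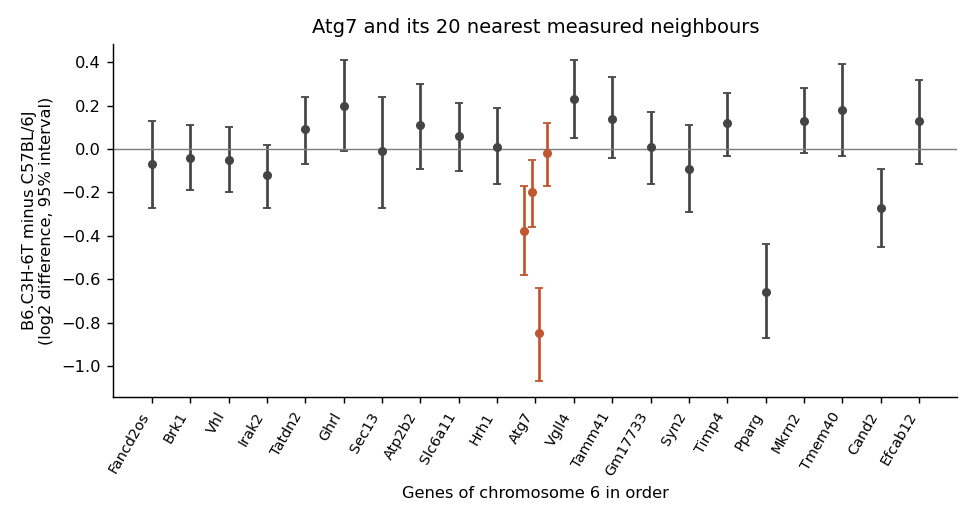
Strain difference (log2, y axis) with 95% intervals for Atg7 (orange, its 4 probe sets) and the 10 measured genes on each side of it, in chromosome order on the x axis (grey, 1 probe set per gene). Vgll4, next to Atg7, lies at 0.23 and Pparg, 6 measured genes away, at -0.66. Neighbours are shown at their probe set of highest mean, which for Atg7 is 1428611_at, at -0.20. That probe set is dim for Ghrl, Cand2, Hrh1 and some other neighbours.

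The genes whose pattern over the 6 arrays was most like 1428612_at were Cdkl2 (Pearson r = 0.998), Samd9l (0.993), which also lies on chromosome 6, and Zfp119a (0.991). They differed between the strains by -0.23 ± 0.06, -0.36 ± 0.07 and -0.20 ± 0.06. Because they were picked for following 1428612_at, a lower value in B6.C3H-6T came with the choice. Those most like 1428611_at, the Atg7 probe set of highest mean, were Dhx32 (0.998), Aagab (0.990) and Smc2 (0.988). No gene was on both lists. The search covered the 34945 probe sets paired with 1 gene, less those of Atg7. With 6 arrays and so many probe sets, correlations of this size arise in number, and they are given as a description.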

How the data were processed

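Liver RNA of 3 C57BL/6J and 3 B6.C3H-6T mice was hybridized to 1 Affymetrix array each. Per the labels' protocols, it was amplified from an oligo(dT) primer, so probe sets read mainly the 3' part of a transcript. Images were quantified with GeneChip Operating Software 1.2. The deposited values are log2 expression values, made by the authors with RMA (affy) per the submitters' processing notes. No version, batch or scan date is given in these sources.

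Of 45101 probe sets, 64 controls were left out. Names came from the platform annotation, updated through RefSeq (GRCm38.p6), which also gave gene order and promoter windows. The strain comparison used limma 3.58.1 (R 4.3.3; lmFit and eBayes without covariates) on all 45037 probe sets, Benjamini-Hochberg adjusted, at a threshold of 0.05. A negative difference means lower in B6.C3H-6T. The number of arrays limits the precision. Alternatives were each array left out, a dim filter (mean of 6), centring, quantile normalization, other variance models, and other probe sets per gene.

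Named genes were all members, up to 3 genes of smallest p per role list, 5 of the 20 neighbours, and the 3 genes most like each of 2 Atg7 probe sets. Members and lists were chosen with earlier results of these data known. Replicate numbers only name mice.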

Additional observations from a re-analysis of the deposited data

How the results depend on the processing

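Over all probe sets the count of 26 became 11 to 17 when 1 array was left out. The counts of member and of Atg7 probe sets past the threshold, 1 each, became 0 to 1. In a linear fit without moderated variances all 3 counts were 0, and 1428612_at had an adjusted p of 0.427; such a fit has few degrees of freedom with 3 arrays per strain. Under the dim filter, centring, quantile normalization, a variance trend, and with _x_at and _s_at probe sets left out, 1428612_at stayed past the threshold (adjusted p 0.0108 to 0.0394). The counts of 0 for the wider list and for the neighbours of Atg7 stayed 0 under every alternative run. Of 767 values of single probe sets and genes under an alternative, 742 kept their direction and their side of the threshold, whatever their size. The call was lost in 5, all at 1428612_at, and 20 changed sign. Only 1428612_at had a call to lose, and 7 alternatives kept it. For all other values keeping their side meant staying uncalled, so the count of 742 says little about stability. None of the 20 had passed, and the cause was not tested.

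Of the 20, 14 came from leaving out 1 array, where values ran from -0.06 to 0.00 at Atg7 1446633_at, -0.04 to 0.12 at Atg16l1 1441852_x_at, -0.14 to 0.01 at Sqstm1 1444021_at, -0.07 to 0.01 at Map1lc3b 1415930_a_at and -0.09 to 0.12 at Map1lc3b 1428024_at. At Becn1 they ran from -0.04 to 0.01 (1430358_at), -0.03 to 0.25 (1435219_x_at) and -0.12 to 0.03 (1437006_x_at). Map1lc3b 1428024_at was also -0.02 after centring and -0.02 after quantile normalization. With the probe set of median p per gene Wipi2 was 0.03, Atg16l2 -0.16 and Wdfy3 0.04, and with the mean of all probe sets Atg16l2 was 0.00. With the probe set of median p Atg13 was 0.07, Fundc1 -0.08, Map1lc3a -0.15 and Wdr45 -0.32; with the mean of all probe sets Mkrn2 was 0.03. No paired analysis was possible because the labels give the mice pedigree numbers of their own and no replicate numbers shared between strains.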

Other observations

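Of 9010 genes with at least 2 probe sets of their own, 17 (0.189%) had a spread between probe sets as large as that of Atg7, counting Atg7. Those with a probe set that was lower while another stayed near 0 included Mid1 on the X chromosome (-1.90 and 0.16), Bid on chromosome 6 (-1.63 and -0.13), the carbonic anhydrase gene Car3 (-1.09 and 0.09) and Peg3 (-0.99 and 0.14). Acly, the ATP citrate lyase gene of fat synthesis, ran the other way, from 0.05 to 1.0. In the genes Fkbp14 and Anxa4 on chromosome 6 the probe sets pointed in opposite directions, at -0.45 and 0.43 and at -0.62 and 0.23. So did those of Egfr on chromosome 11 (-0.63 and 0.23) and Cux2 on chromosome 5 (-0.61 and 0.24). Of the 17 genes with so large a spread, 16 had a listed chromosome. Chromosome 6 held 4 of these 16 (Atg7, Bid, Fkbp14 and Anxa4), or 25.0%. It held 503 of the 8968 genes with 2 or more probe sets and a listed chromosome, or 5.61%. These genes were picked for their values, so the shares are given with no test. Dim probe sets were kept in every spread, and that of Atg7 has its upper end at the dim 1446633_at.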
